A study of Homo sapiens with 3 samples.

Results

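The 8 genes described here make, sense and remove prostaglandin E2 in NCI-N87, a cell line grown from a human gastric carcinoma. They were taken by gene symbol from a deposited table of 31907 rows, and all 8 were found. The choice was made with earlier results of these data known, so counts and ranks of these genes are not independent of the data. PLA2G4A, PTGS2, PTGS1, PTGES2 and PTGES encode enzymes of synthesis, PTGER2 and PTGER4 encode receptors, and HPGD encodes the enzyme that starts inactivation. All 3 libraries came from cells transfected with Lipofectamine 2000: 1 received siRNA1 against FOXP4, 1 received siRNA2 against FOXP4 (both labelled as knockdown), and 1 received a scrambled siRNA (labelled WT). FOXP4 is a forkhead transcription factor. The siRNAs are different reagents, each used in a single library, and the labels do not say whether the cultures were separate. Any p-value thus rests on the spread between the siRNA libraries, weighed with that of other genes. That spread may be technical or come from the reagents, and the lone scrambled library adds none.

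Prostaglandin E2 is built in 3 enzymatic steps. Cytosolic phospholipase A2, the product of PLA2G4A, frees arachidonic acid from membrane lipids. The cyclooxygenases convert it to prostaglandin H2. PTGS1 is the form made constitutively in many tissues, and PTGS2 is the form induced by growth factors, cytokines and stress. The synthases encoded by PTGES, PTGES2 and PTGES3 then make prostaglandin E2, which acts through receptors such as EP2 and EP4 (PTGER2 and PTGER4), both of which raise cAMP. HPGD oxidises prostaglandin E2 and so inactivates it. In the gut this pathway protects the mucosa, and high PTGS2 with low HPGD is a known feature of many gastrointestinal tumours.

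The sequences just upstream of PTGS2 and HPGD are shown because these genes lay at opposite ends of the members' mean log2 differences. With siRNA1 alone the lowest member was PTGES2. Each run is the 250 bases before a RefSeq transcript start, on the minus strand of GRCh38.p14. Capitals mark letter patterns searched on both strands. The TATA box was searched as TATAAA. The core of the cAMP response element was searched as TGACG, which reads CGTCA on the other strand. The C/EBP pattern was TTNNGNAA, and the forkhead pattern, the family of FOXP4, was TGTTTNC. PTGS2 has 1 listed start, and HPGD has 2 that lie 405 bases apart, so both of its windows are given.
PTGS2, chr1:186680424-186680673: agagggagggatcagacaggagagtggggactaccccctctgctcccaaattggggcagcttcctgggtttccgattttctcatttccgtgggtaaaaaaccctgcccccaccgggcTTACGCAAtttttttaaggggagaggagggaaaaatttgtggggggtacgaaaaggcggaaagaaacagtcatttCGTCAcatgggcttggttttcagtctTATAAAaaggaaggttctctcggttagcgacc
HPGD downstream start, chr4:174522489-174522738: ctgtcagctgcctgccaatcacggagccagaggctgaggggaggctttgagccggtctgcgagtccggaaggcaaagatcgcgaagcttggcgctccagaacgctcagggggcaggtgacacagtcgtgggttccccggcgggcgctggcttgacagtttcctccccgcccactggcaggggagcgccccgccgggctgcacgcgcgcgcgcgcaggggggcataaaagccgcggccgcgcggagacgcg
HPGD upstream start, chr4:174522894-174523143: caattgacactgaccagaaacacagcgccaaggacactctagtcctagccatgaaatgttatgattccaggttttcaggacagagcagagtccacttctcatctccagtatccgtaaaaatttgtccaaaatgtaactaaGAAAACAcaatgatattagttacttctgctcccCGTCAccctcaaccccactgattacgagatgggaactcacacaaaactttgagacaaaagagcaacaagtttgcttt

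The PTGS2 window held TATAAA beginning 32 bases before the start, CGTCA 58 bases before it and TTACGCAA, a C/EBP match on either strand, 133 bases before it. TATAAA was found in 10.7% of 35097 RefSeq windows of the same length, TGACG in 21.2% and TTNNGNAA in 33.2%. A loose NF-kB pattern, GGG and CC with 5 bases of any kind between them and left in lower case, matched in the PTGS2 window near 224 bases before the start, in 9 of the 12 windows of the members and in 54.4% of all windows. TGTTTNC was present in 1 of the 12, the upstream window of HPGD, where its reverse complement GAAAACA begins 110 bases before the start, and in 15.5% of all windows. TGANTCA, the AP-1 pattern, was in 0 of the 12 and in 6.57% of all windows. These letter matches describe the windows only, and no binding was measured here.

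Values are TPM, a share of reads corrected for transcript length, so levels of different genes can be compared within a library. TPM times exon length stepped by a fixed amount per read, and all 24 member values came within 0.000173 of a whole number of reads. The reads so inferred give 95% counting intervals, which cover counting error only and not differences between cultures. Total depth was about 1.90e+07 reads with siRNA1, 1.95e+07 with siRNA2 and 1.88e+07 with the scrambled siRNA. FOXP4 itself measured 51.6 and 36.7 TPM with siRNA1 and siRNA2, against 93.9 TPM with the scrambled siRNA. Its log2 differences from the scrambled library were -0.85 and -1.33, and became -0.20 with siRNA1 and -1.02 with siRNA2 once a trend with transcript GC content was taken out. Epithelial markers (EPCAM, keratins, CDH1 and ERBB2) summed to 3219 and 4795 TPM with the FOXP4 siRNAs, against 4508 TPM with the scrambled siRNA. CDH1, which encodes E-cadherin, was low among them, at 5.86 and 11.6 TPM, against 4.16 TPM. The 4 leukocyte markers with a row all stayed under 1 TPM, with 2 at 0 in each library. The 5 fibroblast and endothelial markers with a row summed to 9.72 and 25.3 TPM, against 16.003 TPM, mostly COL1A1, with 1 at 0 in each library. ITGA2B, the platelet marker with a row, was under 1 TPM. What part these markers have in the results was not tested. In bulk RNA, fewer cells making a transcript and less of it per cell cannot be told apart.

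PTGS2, which encodes the inducible cyclooxygenase, measured 66.4 TPM with siRNA1 (95% counting interval 63.2 to 69.8) and 113 TPM with siRNA2 (109 to 117), against 9.999 TPM with the scrambled siRNA (8.79 to 11.3). Both FOXP4 siRNA libraries lay far above the control, and the siRNA2 library lay above the siRNA1 library. The values rest on 1594, 2754 and 248 reads in that order. As TPM ratios PTGS2 was 6.64 times the scrambled level with siRNA1 (5.81 to 7.62) and 11.3 times with siRNA2 (9.90 to 12.9). The gene (ENSG00000073756.11) lies on chromosome 1 at 186671791 to 186680427, minus strand, GRCh38.

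The other cyclooxygenase gene, PTGS1 (ENSG00000095303.15, chromosome 9 at 122370530 to 122395703, plus strand), was at the detection limit. It had 1 read in each library, which is 0.0379 and 0.0373 TPM with siRNA1 and siRNA2 and 0.0367 TPM with the scrambled siRNA. No difference was detectable at this depth, and no fold is given because every library is under a floor of 3 reads. PTGS2 thus made up 99.9% and 99.97% of cyclooxygenase TPM with siRNA1 and siRNA2, and 99.6% with the scrambled siRNA. Cyclooxygenase mRNA in these cells was almost wholly PTGS2 in each library, the control included.

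**Figure D1:**
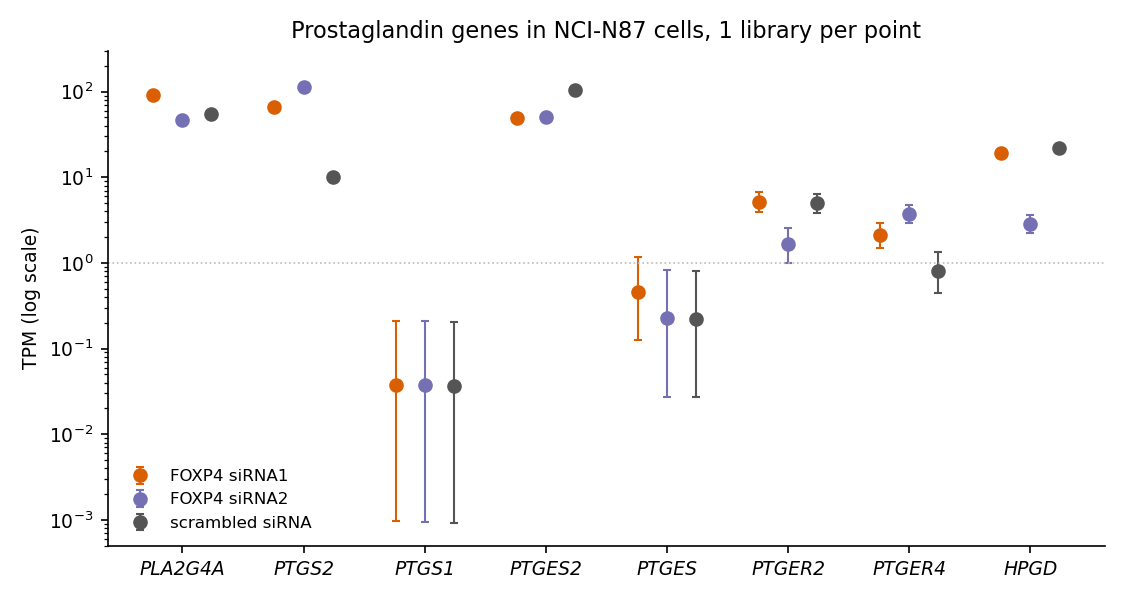
TPM of the 8 genes (log axis) in the siRNA1, siRNA2 and scrambled libraries, 1 point per library, with exact Poisson 95% intervals of the inferred reads as bars and a dotted line at 1 TPM. PTGS2 lies at 66.4 and 113 TPM with the FOXP4 siRNAs against 9.999 TPM with the scrambled siRNA, while PTGS1 and PTGES lie under 1 TPM everywhere.

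PLA2G4A, which supplies the arachidonic acid, measured 92.3 TPM with siRNA1 and 46.2 TPM with siRNA2, against 54.7 TPM with the scrambled siRNA. The FOXP4 siRNA libraries lay on opposite sides of the control. The ratios were 1.69 (95% counting interval 1.54 to 1.85) with siRNA1 and 0.846 (0.759 to 0.942) with siRNA2. On the log2(TPM + 1) scale the siRNA2 difference was -0.24, and it turned to 0.04 when libraries were rescaled by median of ratios. Removal of the GC trend gave a siRNA1 difference of 0.30, in place of 0.75. PLA2G4A (ENSG00000116711.9, chromosome 1 at 186828953 to 186988981, plus strand) lies 149 kb from PTGS2. With siRNA1 both neighbours were above the control. With siRNA2, PTGS2 was high where PLA2G4A was slightly below the control in the deposited values, a difference whose sign depended on scaling.

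PACERR, a non-coding RNA gene that lies 194 bases upstream of the start of PTGS2, on the opposite strand, was listed at 1.86 TPM with siRNA1 and 0.262 TPM with siRNA2, and at 0 with the scrambled siRNA. That is 7, 1 and 0 reads. A count of 0 allows up to 0.772 TPM at 3 reads, so the siRNA2 value could not be told from the control. GENCODE 29 gives no exon shared by PACERR and PTGS2. PACERR was named after its values were seen, as the transcript next to PTGS2.

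Of the terminal synthases, PTGES2, which encodes a membrane-associated synthase, measured 48.8 TPM with siRNA1 and 51.1 TPM with siRNA2, against 105.7 TPM with the scrambled siRNA. Both siRNA libraries had close to the same level, below the control. They stood at 46.1% (95% counting interval 42.1% to 50.6%) and 48.4% (44.2% to 52.9%) of the scrambled level. The gene (ENSG00000148334.14, chromosome 9 at 128120693 to 128128462, minus strand) has 65.7% GC in its transcript, against 36.9% for PTGS2. With the GC trend removed its log2 folds were -0.28 with siRNA1 and -0.70 with siRNA2, in place of -1.10 and -1.03. PTGES2 stayed below the control with both siRNAs, but no longer by 2-fold.

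PTGES (ENSG00000148344.10, chromosome 9 at 129738331 to 129753047, minus strand), the inducible synthase often coupled to PTGS2, was nearly silent. It measured 0.463 and 0.228 TPM with siRNA1 and siRNA2 and 0.224 TPM with the scrambled siRNA, from 4, 2 and 2 reads. No difference was detectable at this depth. PTGES3, the cytosolic synthase that also serves as the HSP90 co-chaperone p23, was the abundant one, at 585 and 376 TPM with siRNA1 and siRNA2, against 540 TPM with the scrambled siRNA. PTGES2 made up 7.69% and 11.96% of the summed TPM of these 3 synthases with siRNA1 and siRNA2, and 16.4% with the scrambled siRNA. PTGES supplied under 0.1% in each library.

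The receptors differed from each other. PTGER4, which encodes EP4, measured 2.11 TPM with siRNA1 and 3.76 TPM with siRNA2, against 0.804 TPM with the scrambled siRNA. Both FOXP4 siRNA libraries were above the control, from 38 and 69 reads against 15. The gene (ENSG00000171522.5) lies on chromosome 5 at 40679498 to 40693735, plus strand. Its TPM ratios were 2.62 (95% counting interval 1.41 to 5.12) with siRNA1 and 4.67 (2.65 to 8.80) with siRNA2. On the log2(TPM + 1) scale, which understates low genes, these became 0.78 and 1.40.

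PTGER2, which encodes EP2, measured 5.15 TPM with siRNA1 and 1.66 TPM with siRNA2, against 4.98 TPM with the scrambled siRNA. The siRNA1 and scrambled libraries had 58 reads each and could not be told apart, while the siRNA2 library had 19. The gene (ENSG00000125384.6) lies on chromosome 14 at 52314305 to 52328606, plus strand. The ratio with siRNA2 was 0.333 (95% counting interval 0.187 to 0.567). The order of the receptors differed too: PTGER4 stood at 0.409 times PTGER2 with siRNA1 and 2.27 times with siRNA2, against 0.161 times with the scrambled siRNA. Only with siRNA2 did the interval of that ratio (1.35 to 3.99) lie above 1. Summed TPM of the receptors was 7.26 and 5.42 with siRNA1 and siRNA2, and 5.79 with the scrambled siRNA.

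HPGD, which encodes the inactivating dehydrogenase, measured 19.3 TPM with siRNA1 and 2.85 TPM with siRNA2, against 21.8 TPM with the scrambled siRNA. The siRNA2 library stood far below the others, with 73 reads against 485 with siRNA1 and 567 with the scrambled siRNA. HPGD kept 88.4% of the scrambled level with siRNA1 (95% counting interval 78.1% to 99.97%) and 13.1% with siRNA2 (10.1% to 16.7%). With the GC trend removed, the log2 differences of HPGD were -0.63 with siRNA1 and -2.45 with siRNA2, in place of -0.17 and -2.57. From the lowest log2 difference with siRNA2 upwards, HPGD ranked 76 of 14429 genes tested. The gene (ENSG00000164120.13) lies on chromosome 4 at 174490177 to 174523154, minus strand. Between the siRNA libraries the ratio was 0.148 (0.114 to 0.190), siRNA2 over siRNA1, with 1 library each and so no test.

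**Figure D2:**
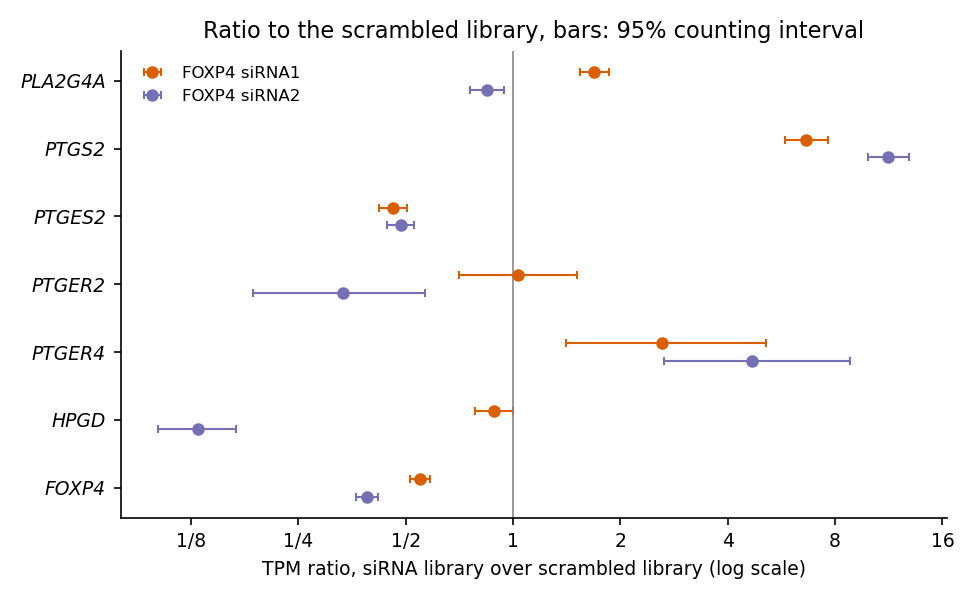
Ratio of TPM in each FOXP4 siRNA library to the scrambled library (log axis) for the 6 members with a mean of at least 1 TPM and for FOXP4, with 95% Clopper-Pearson counting intervals as bars. PTGS2 and PTGER4 lie right of 1 and PTGES2 left of 1 with both siRNAs, while HPGD and PTGER2 are far left of 1 with siRNA2 alone.

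The balance of the inducible cyclooxygenase to the inactivating enzyme differed between all 3 libraries. PTGS2 stood at 3.45 times HPGD with siRNA1 (95% counting interval 3.11 to 3.83) and 39.6 times with siRNA2 (31.4 to 50.7), against 0.459 times with the scrambled siRNA (0.394 to 0.534). These intervals do not overlap. PTGS2 stood at 0.719 times PLA2G4A with siRNA1 and 2.44 times with siRNA2, against 0.183 times with the scrambled siRNA. Ratios within a library do not depend on how libraries are scaled.

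**Figure D3:**
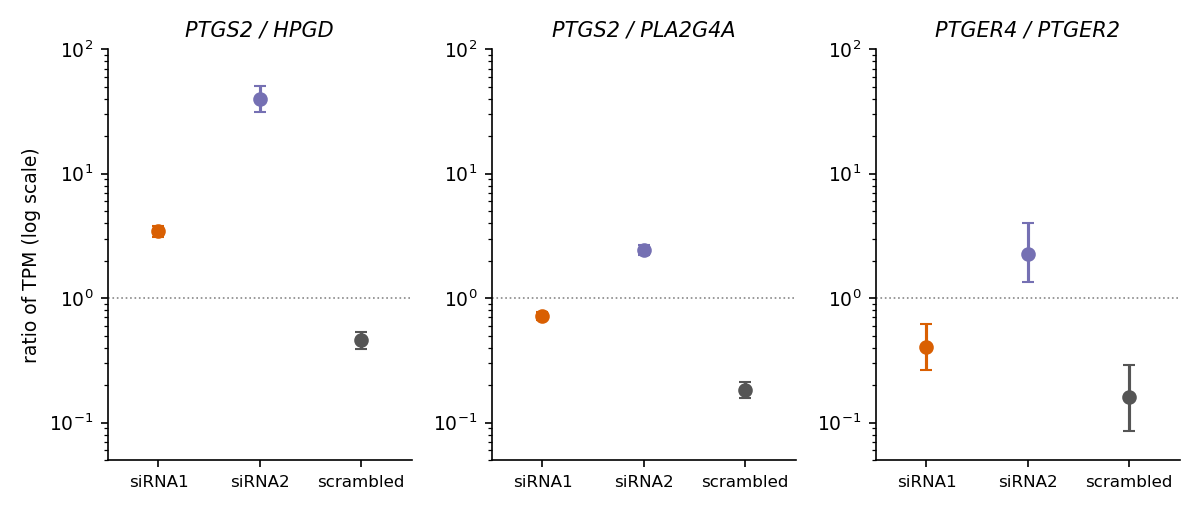
Ratio of TPM between pairs of members within the siRNA1, siRNA2 and scrambled libraries (log axis), with 95% Clopper-Pearson counting intervals as bars. PTGS2 over HPGD lies at 3.45 and 39.6 with the FOXP4 siRNAs against 0.459 with the scrambled siRNA, and PTGER4 over PTGER2 is above 1 with siRNA2 alone.

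The order of levels differed by library. With siRNA1 it ran PLA2G4A, PTGS2, PTGES2, HPGD, PTGER2, PTGER4, PTGES and PTGS1. With siRNA2 it ran PTGS2, PTGES2, PLA2G4A, PTGER4, HPGD, PTGER2, PTGES and PTGS1, and there the counting intervals of PTGES2 and PLA2G4A overlapped, as did those of PTGER4 and HPGD and those of HPGD and PTGER2. With the scrambled siRNA the order was PTGES2, PLA2G4A, HPGD, PTGS2, PTGER2, PTGER4, PTGES and PTGS1, with overlapping intervals for PTGER4 and PTGES. The intervals of PTGES and PTGS1 overlapped in all 3 libraries. PTGS2 thus headed the list with siRNA2 and followed PLA2G4A with siRNA1, while in the control it stood below PTGES2, PLA2G4A and HPGD. The summed TPM of the 8 members was 235 and 219 with siRNA1 and siRNA2, and 198 with the scrambled siRNA.

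The FOXP4 siRNA libraries were compared with the scrambled library for every gene averaging 1 TPM or more, a filter that 6 of the 8 members passed and PTGS1 and PTGES did not. PTGER4, at 0.804 TPM in the control, passed through the FOXP4 siRNA libraries, where it was higher. Both differences of a gene share the scrambled library, so they are given side by side. By size, 1 tested member, PTGS2, was at least 2-fold higher on the log2(TPM + 1) scale with both siRNAs, where 2.52% of all genes tested were. Likewise 1, PTGES2, was at least 2-fold lower with both, where 2.38% were. Either direction together held 4.89% of all genes. With siRNA1 alone, 2 members were at least 2-fold from the control in either direction, PTGS2 and PTGES2, where 11.3% of all genes were. With siRNA2 alone, 5 of the 6 were, PTGS2 and PTGER4 higher and PTGES2, PTGER2 and HPGD lower, where 20.1% of all genes were. Because the members were chosen with earlier results of these data known, these contrasts with all genes are not independent of that choice. The members' median log2 difference was 0.39 with siRNA1 and -0.64 with siRNA2, against 0.03 and -0.24 over all genes tested. The median gene was thus below the control with siRNA2, and rescaling by median of ratios shifts siRNA2 values up by about that 0.24. PTGS2 then measured 3.64, PTGER4 1.59, PTGES2 -0.76, PTGER2 -0.98 and HPGD -2.34 with siRNA2, so PTGES2 and PTGER2 no longer reached 2-fold.

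In limma, PTGS2 had a mean log2 difference of 2.99 ± 0.53 (SD, n = 2 siRNAs), higher in 2 of 2 siRNA libraries, and did not pass over all genes tested (adjusted p = 0.9999, unadjusted p = 0.00214). By the smaller of its log2 differences PTGS2 ranked 22 of 14429 genes. PTGES2 stood at -1.07 ± 0.05, PTGER4 at 1.09 ± 0.44 and HPGD at -1.37 ± 1.69 (SD, n = 2), each with an adjusted p of 0.9999 in limma. PTGER2 stood at -0.57 ± 0.86 and PLA2G4A at 0.25 ± 0.69, also with an adjusted p of 0.9999 in limma. The spread between siRNAs was larger than the mean difference for HPGD, PTGER2 and PLA2G4A. Limma called 0 of 14429 genes at an adjusted p under 0.05 (0%), and 428 (2.97%), PTGS2 among them, had an unadjusted p under 0.05. Restricted to the 9129 genes averaging 10 TPM or more, limma called 93 (1.02%), and 488 (5.35%) had an unadjusted p under 0.05. PTGS2 was called there (adjusted p = 6.96e-05, the lowest of a range up to 1 over its 8 alternatives). At 9.999 TPM in the control, PTGS2 passed that filter through the FOXP4 siRNA libraries, where it was higher. In that fit, too, limma's prior degrees of freedom were infinite. A gene thus carried 0% weight for its spread between siRNAs, against 18.7% in the fit of 14429 genes.

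**Figure D4:**
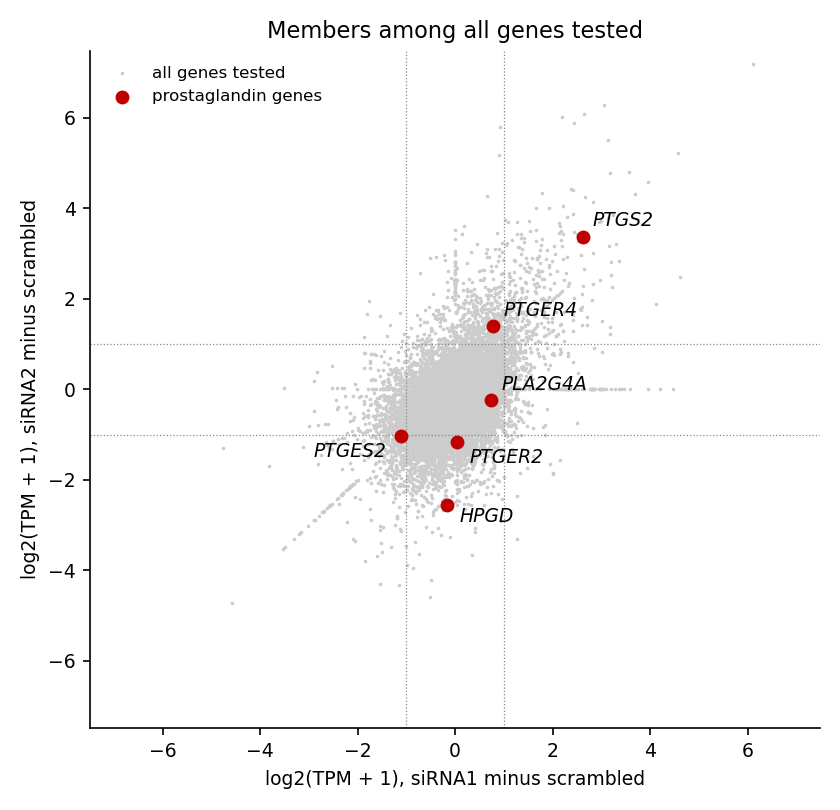
Difference from the scrambled library in log2(TPM + 1) for siRNA1 (horizontal) and siRNA2 (vertical), 1 point per gene, with all 14429 genes tested in grey, the 6 tested members in red and dotted lines at 2-fold. Both axes share the scrambled library. PTGS2 lies at 2.62 and 3.37, at the upper edge of the cloud, and HPGD at -0.17 and -2.57, at its lower edge.

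The protein-coding genes of at least 10 TPM whose pair of log2 differences lay nearest to that of PTGS2 were SPRY4, ZFP36, JUN and MCL1, at Euclidean distances of 0.13, 0.13, 0.20 and 0.40 among 8312 candidates. SPRY4 measured 290 and 553 TPM with siRNA1 and siRNA2, against 50.6 TPM with the scrambled siRNA. Nearest to HPGD were HMGB2, COPZ1, NUSAP1 and FBXO30, at distances of 0.07, 0.13, 0.14 and 0.15. HMGB2 measured 320 and 59.3 TPM with siRNA1 and siRNA2, against 346 TPM with the scrambled siRNA. Likeness here rests on 3 libraries.

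The rest of the pathway was followed in 8 lists of 82 genes with a row, of which 56 averaged 1 TPM or more. Of these 56, 7 were at least 2-fold higher with both siRNAs, where 2.52% of all genes tested were, 1 was at least 2-fold lower, where 2.38% were, and limma called 0. The lists were chosen with earlier results of these data known, so these counts are not independent of the data. Other phospholipase A2 and lipid hydrolase genes had median log2 differences of -0.13 and 0.14 with siRNA1 and siRNA2 over 9 genes, with 0 past 2-fold with both siRNAs. That siRNA1 median was the value of PLA2G10, which passed the filter through siRNA2 alone. PLA2G10 measured 0.787 and 2.51 TPM with siRNA1 and siRNA2, against 0.952 TPM with the scrambled siRNA. PLA2G2A, a secreted phospholipase named here for its level, measured 688 and 746 TPM, against 856 TPM with the scrambled siRNA. Other terminal synthases had medians of -0.04 and -0.49 over 6 genes, again with 0 past 2-fold with both. FAM213B, now called PRXL2B, which encodes a prostamide and prostaglandin F synthase, measured 23.6 and 13.96 TPM, against 45.4 TPM with the scrambled siRNA. FAM213B was named after its values were seen, as were PLA2G10, PTGER1, ZADH2, SLCO2A1, ABCC4, ALOXE3, TNPO1, IL6, EGFR, CEBPD and CEBPB.

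Of 4 other prostanoid receptors with a row, only PTGER1, which encodes EP1, passed the filter. It measured 0.463 TPM with siRNA1 and 4.56 TPM with siRNA2, against 0.747 TPM with the scrambled siRNA, a control value of 5 reads, and so passed through siRNA2 alone. For transport and inactivation the medians over 5 genes were 0.18 and -0.19, with 0 past 2-fold with both siRNAs. ZADH2, now called PTGR3, a prostaglandin reductase gene, measured 21.3 TPM with siRNA1 and 6.67 TPM with siRNA2, against 18.6 TPM with the scrambled siRNA. In the deposited values ZADH2, like HPGD, was far below the control with siRNA2 alone. The rest of that list did not share this: of the 5, 2 were above the control with both siRNAs and 1 was below with both. The 2 were SLCO2A1, at 82.3 and 53.9 TPM against 45.2 TPM, and ABCC4, at 47.5 and 50.3 TPM against 44.7 TPM. The lipoxygenase branch, which competes for arachidonic acid, had medians of 0.16 and -0.25 over 5 genes, with 0 past 2-fold with both. Its siRNA1 median was the value of ALOXE3, which passed the filter through siRNA2 alone. ALOXE3 measured 0.876 and 5.28 TPM with siRNA1 and siRNA2, against 0.678 TPM with the scrambled siRNA.

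Genes listed for the response to cAMP, the second messenger of EP2 and EP4, had medians of 0.51 and 0.39 over 8 genes. The list holds transcription factors that act in that response as well as its targets. Of the 8, 1 was at least 2-fold higher with both siRNAs. That gene, PDE4D, a cAMP phosphodiesterase, measured 5.54 and 5.51 TPM with siRNA1 and siRNA2, against 1.98 TPM with the scrambled siRNA. Among 10 genes listed as regulators of mRNAs such as that of PTGS2, most of them for RNA-binding proteins and 1, TNPO1, for a nuclear import receptor, medians were 0.16 and -0.12, and ZFP36, which encodes tristetraprolin, a factor that speeds decay of AU-rich mRNAs, was the 1 gene at least 2-fold higher with both. ZFP36 measured 952 and 1619 TPM with siRNA1 and siRNA2, against 166 TPM with the scrambled siRNA. The genes listed as inducers upstream of PTGS2 had medians of 0.61 and 1.90 over 12 genes, and of 0.69 and 1.38 over the 11 left without IL6. Whether each of them acts on PTGS2 in these cells was not tested. IL6, a cytokine gene, was listed at 4.38 TPM with siRNA2 and at 0 in the other libraries, so it passed the filter through siRNA2 alone. Of the 12, 5 were at least 2-fold higher with both siRNAs (HBEGF, FOS, ATF3, JUN and EGFR), where 2.52% of all genes tested were, and 1 was at least 2-fold lower (CEBPD), where 2.38% were. This list, too, was chosen with earlier results of these data known, so the contrast is not independent of that choice. HBEGF, a ligand of the EGF receptor, measured 245 and 736 TPM with siRNA1 and siRNA2, against 25.97 TPM with the scrambled siRNA. EGFR, the receptor, measured 79.8 and 351 TPM, against 35.0 TPM. Ligand and receptor were thus both above the control with both siRNAs. FOS, a subunit of AP-1 with JUN, measured 335 and 340 TPM, against 36.7 TPM. ATF3, a stress-induced transcription factor, measured 191 and 320 TPM, against 23.2 TPM. CEBPD, a C/EBP transcription factor, measured 4.74 and 4.26 TPM, against 12.5 TPM. CEBPB, the other C/EBP gene of this list, went the other way, at 315 and 667 TPM, against 256 TPM.

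**Figure D5:**
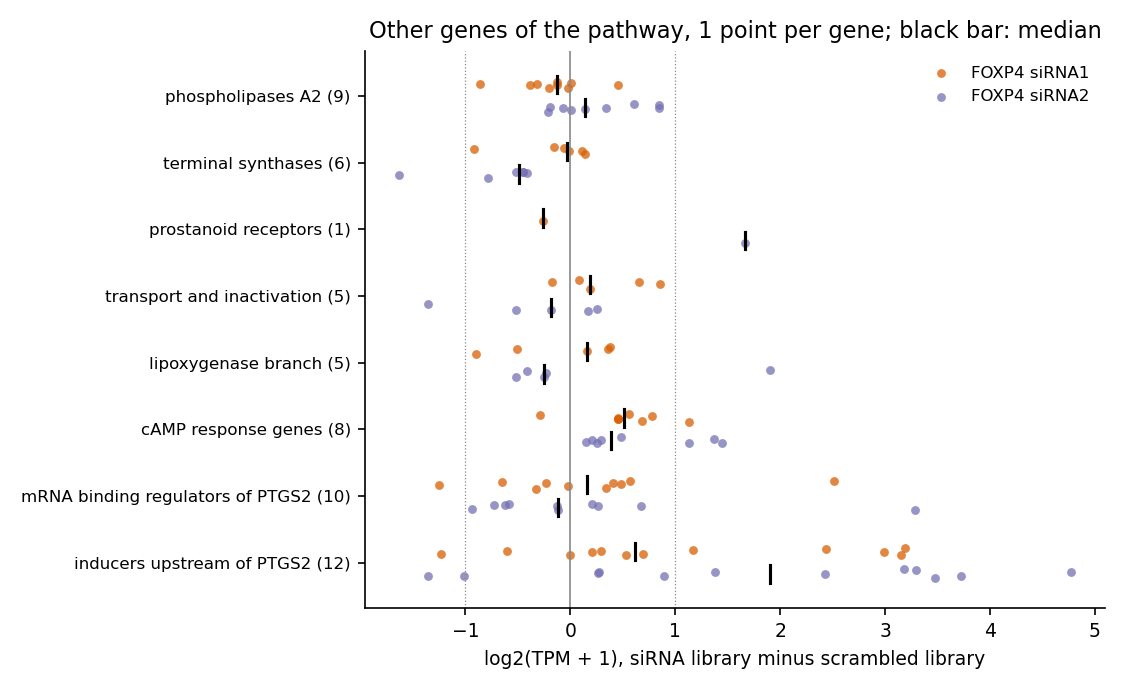
Difference from the scrambled library in log2(TPM + 1) for the tested genes of 8 pathway lists (number of genes in brackets), siRNA1 above siRNA2 in each list, 1 point per gene, with black bars at medians and dotted lines at 2-fold. The listed inducers of PTGS2 have medians of 0.61 and 1.90 (0.69 and 1.38 without IL6, which is at 0 in the scrambled library). The lists of synthesis, transport and lipoxygenase genes have medians between -0.49 and 0.18. The lists were chosen with earlier results of these data known.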

How the data were processed

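Poly(A) RNA of 3 NCI-N87 libraries was sequenced. The authors deposited 1 table of TPM, 1 column per library, built on GRCh38 per the submitters' processing notes. Which quantifier and annotation were used is not given in the sources used here. Since TPM has 1 fixed total, abundant transcripts lower all others. Of 31907 rows, 26 carried dates in place of gene symbols.

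Reads were inferred from TPM and GENCODE 29 exon lengths. Among values under 2 TPM with up to 10 reads, 92.9%, 93.0% and 93.2% in siRNA1, siRNA2 and scrambled lay within 0.1 of a whole number. Whether a read is a pair is unknown. Intervals are exact Poisson for levels and Clopper-Pearson for ratios.

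Genes averaging 1 TPM or more were compared as log2(TPM + 1) in limma 3.58.1 (R 4.3.3), 2 FOXP4 siRNA libraries against 1, with an intensity trend and Benjamini-Hochberg adjustment. The 1 residual degree of freedom comes from the spread between siRNAs, and the lone scrambled library is assumed to vary like them. Named genes were all members, FOXP4, up to 4 genes per list at least 2-fold off with both siRNAs, and the 4 genes nearest to PTGS2 and to HPGD. Others are named as chosen after their values were seen. PLA2G2A and PTGES3 were named for their levels. Members and lists were chosen with earlier results of these data known. RefSeq promoter windows matched all 8 members. 5 listed genes without a row were not used here. Alternatives were other pseudocounts, filters and scalings, removal of the GC trend and leaving out each siRNA library.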

Additional observations from a re-analysis of the deposited data

How the results depend on the processing

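No paired analysis was possible because the scrambled group has 1 library and shares no second replicate number with the FOXP4 siRNAs. PTGS2 was at least 2-fold higher with both siRNAs in all 8 other settings, with a mean log2 difference of 2.61 to 3.12. The count of 2 members at least 2-fold off with both siRNAs became 1 with a pseudocount of 5 TPM, quantile normalization, median-of-ratios rescaling and the GC trend removed, each time by loss of PTGES2, and it was 2 to 5 when either siRNA library was left out. With a pseudocount of 0.1 TPM it was 3, by gain of PTGER4. Over all genes the count of 706 (363 higher, 343 lower) became 279 with a pseudocount of 5 TPM, 347 with a mean of at least 10 TPM, 399 (282 higher, 117 lower) with the GC trend removed and 1626 to 2895 without either siRNA library. With a siRNA library left out, the rule asks for 2-fold with the remaining siRNA alone. Those counts, of members and of all genes, thus follow a looser rule than the others. Median-of-ratios rescaling gave 396 higher and 248 lower. Lower genes outnumbered higher ones with no filter (959, 376 higher and 583 lower) and with a pseudocount of 0.1 TPM (1028, 507 higher and 521 lower). Limma called 0 genes, and 0 in the other settings but 2. It called 93 with a mean of at least 10 TPM, PTGS2 among them, and 9 without mitochondrially encoded genes. Limma's weight for a gene's own spread between siRNAs was 0% and 7.16% in these fits, against 18.7% in the main fit. Over the other settings fitted, which gave 0 calls, that weight was 14.6% to 53.2%. What part the weight had in the calls was not tested. Under the 8 settings that kept all libraries no member's mean difference changed sign, and that of PLA2G4A was as small as 0.09. Leaving out siRNA1 gave -0.24 for PLA2G4A, against 0.25, and leaving out siRNA2 gave 0.04 for PTGER2, against -0.57. With 1 library against 1 there was no limma test. With IL6 left out, chosen after seeing the data, the medians of the listed inducers of PTGS2 were 0.69 and 1.38. With 1 or 2 reads in most libraries, depth limits PTGS1 and PTGES, and the single control limits every fold.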
